A study of Homo sapiens with 14 samples.

Results

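The 10 genes described here are the core of the unfolded protein response in the endoplasmic reticulum (ER): HSPA5, HSP90B1, HYOU1, CALR, PDIA4, DNAJB9, DNAJC3, SDF2L1, HERPUD1 and XBP1. They were taken by Ensembl identifier out of the 62757 genes in each count table, and 10 of 10 were found and tested in every comparison. Most are chaperones or their helpers. HERPUD1 and XBP1 are not chaperones, and were kept because they belong to the same response.

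Proteins bound for the cell surface or for secretion fold inside the ER. When unfolded chains build up, the membrane sensors IRE1 (gene ERN1), PERK (EIF2AK3) and ATF6 become active. IRE1 splices the messenger RNA of XBP1 into the form that encodes an active transcription factor, ATF6 is cleaved to free another, and PERK slows translation while favouring that of ATF4. XBP1 and ATF6 raise the genes of chaperones and of ER-associated degradation. Gene counts do not separate spliced from unspliced XBP1, so the activity of IRE1 was not measured here.

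Bulk RNA was sequenced from 2 human ovarian cancer cell lines, OVCAR3 and A2780, in 14 libraries that make 7 groups of 2. The study asked about RNA editing in resistance to cisplatin, abbreviated DDP in its labels. Of the hairpin groups, sh2 and sh1 carried short hairpin RNAs against ADAR1, an adenosine deaminase that acts on double-stranded RNA, and shNC was their hairpin control. All 3 were labelled as made in cisplatin-resistant OVCAR3 cells. The groups without a hairpin were the OVCAR3-DDP-labelled libraries, the parental OVCAR3-WT, the resistant A2780-DDP and the parental A2780-WT. No drug exposure at harvest, dose or clone is given in the labels, and nothing in them says that the 2 libraries of a group were separate cultures. The p-values therefore measure only the spread between these libraries, which may be technical.

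Between 20428538 and 49115255 counts were assigned to genes per library, 20428538 to 23746370 in the 6 hairpin libraries and 31195174 to 49115255 in the others. The OVCAR3-DDP-labelled libraries stood apart from their label. KRT7, the keratin that marks OVCAR3 among these lines, was at 0.345 and 0.107 CPM in them and at 1079 and 1191 CPM in shNC, against 1132.5 and 1009 CPM in OVCAR3-WT. Of 11 ovarian carcinoma markers, 4 reached 1 CPM in the OVCAR3-DDP-labelled libraries (summed level 494 to 532 CPM) and 8 in shNC (5181 to 5606 CPM), against 8 in OVCAR3-WT (3767 to 4207 CPM). The 9 neural markers summed to 434 to 442 CPM in the OVCAR3-DDP-labelled libraries and 13.5 to 14.9 CPM in shNC, against 4.59 to 5.28 CPM in OVCAR3-WT. Of these markers, 5 reached 1 CPM in the OVCAR3-DDP-labelled libraries, 5 in shNC and 2 in OVCAR3-WT. KRT7 and MUC16 were at or near 0 in A2780 of both kinds. Results on the OVCAR3-DDP-labelled libraries are therefore set beside those with shNC in their place. The hairpin libraries differed from the other 8 in another way: mitochondrial messenger RNA took 0.726% to 0.947% of their assigned counts, against 2.31% to 3.51%, and 4.64% to 4.99% of their reads had more than 1 alignment, against 2.36% to 3.22%. ADAR, the hairpin target, was at 119.8 and 117.6 CPM in sh2, 308 and 262 CPM in sh1, and 500.0 and 454 CPM in shNC, and at 321 and 310.4 CPM in the OVCAR3-DDP-labelled libraries, 445 and 547 CPM in OVCAR3-WT, 490.0 and 606 CPM in A2780-DDP, and 537 and 523 CPM in A2780-WT. Levels are CPM, the counts of a gene scaled to a common library total with TMM factors over all 14 libraries. Differences are log2 fold changes of edgeR's quasi-likelihood test with an approximate standard error (SE), called at a Benjamini-Hochberg adjusted p under 0.05 over all genes tested.

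The promoters of these genes are where the response is read out, so the stretches that hold its known elements are shown for the 7 genes with a match. The windows ran from 250 bases before to 50 after each RefSeq start (GRCh38.p14), 12 windows for the 10 genes, and 35116 windows of this length were searched on both strands. The ER stress element ERSE (CCAAT and CCACG with any 9 bases between them), bound by ATF6 together with NF-Y, was in 27 of all windows (0.0769%) and in 4 of the 12, with 5 matches. The related ERSE-II (ATTGG and CCACG with any 1 base between them) was in 19 of all windows (0.0541%) and in 3 of the 12. The XBP1-type core TGACGTG was in 692 windows (1.97%) and, of the 12, in that of HYOU1 alone. The core TTGCATCA of amino acid response elements, which ATF4 binds, was in 304 windows (0.866%) and, of the 12, in that of HERPUD1 alone. Each sequence runs 5′ to 3′ on the strand of its gene and lies before the RefSeq start, and capitals mark the matches to any of these letters on either strand.
HSPA5: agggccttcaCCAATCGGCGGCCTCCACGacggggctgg
HSP90B1, farther from the start: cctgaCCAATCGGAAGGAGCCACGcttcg
HSP90B1, nearer to the start: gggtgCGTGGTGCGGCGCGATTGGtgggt
CALR: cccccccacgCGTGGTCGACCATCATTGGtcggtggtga
XBP1: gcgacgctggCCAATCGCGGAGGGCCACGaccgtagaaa
HYOU1: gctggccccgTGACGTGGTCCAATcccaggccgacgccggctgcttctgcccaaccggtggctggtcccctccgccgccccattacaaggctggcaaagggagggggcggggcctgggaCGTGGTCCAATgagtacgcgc
HERPUD1: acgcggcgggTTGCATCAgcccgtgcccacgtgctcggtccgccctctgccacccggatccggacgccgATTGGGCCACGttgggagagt
SDF2L1: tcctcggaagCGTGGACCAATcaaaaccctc

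The stretches lie at chr9:125241381-125241419 on the minus strand for HSPA5, chr12:103930211-103930239 and chr12:103930316-103930344 on the plus strand for HSP90B1 and chr19:12938374-12938412 on the plus strand for CALR. Those of XBP1, at chr22:28800593-28800631, and HYOU1, at chr11:119057264-119057403, are on the minus strand. HERPUD1, at chr16:56931956-56932045, and SDF2L1, at chr22:21642104-21642134, are on the plus strand. GENCODE 29, whose gene bounds are given with each gene, sets some starts farther upstream than RefSeq: both stretches of HSP90B1, 29 bases each, and 5 of the 39 bases of XBP1 fall inside its gene bounds. In HYOU1 the TGACGTG match overlaps the first of its 2 ERSE-II matches. No match to these letters stood in the windows of DNAJB9, DNAJC3 and PDIA4, which says only that the letters are not in these windows. A match is a description of the sequence, not evidence of binding in these cells. The letters searched are those of elements already known for this response. The counts beside all windows are therefore no test of enrichment in its genes.

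Across the 7 groups the genes followed different courses. HSPA5, HSP90B1, DNAJB9, DNAJC3 and HERPUD1 had their 3 highest group means in the 3 hairpin groups. PDIA4 and HYOU1 had their highest mean in A2780-WT and their lowest in sh2, with no hairpin group among their top 3. XBP1 was highest in A2780-WT and lowest in A2780-DDP. In these bulk libraries, more cells that express a gene and more RNA per cell cannot be told apart.

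**Figure D1:**
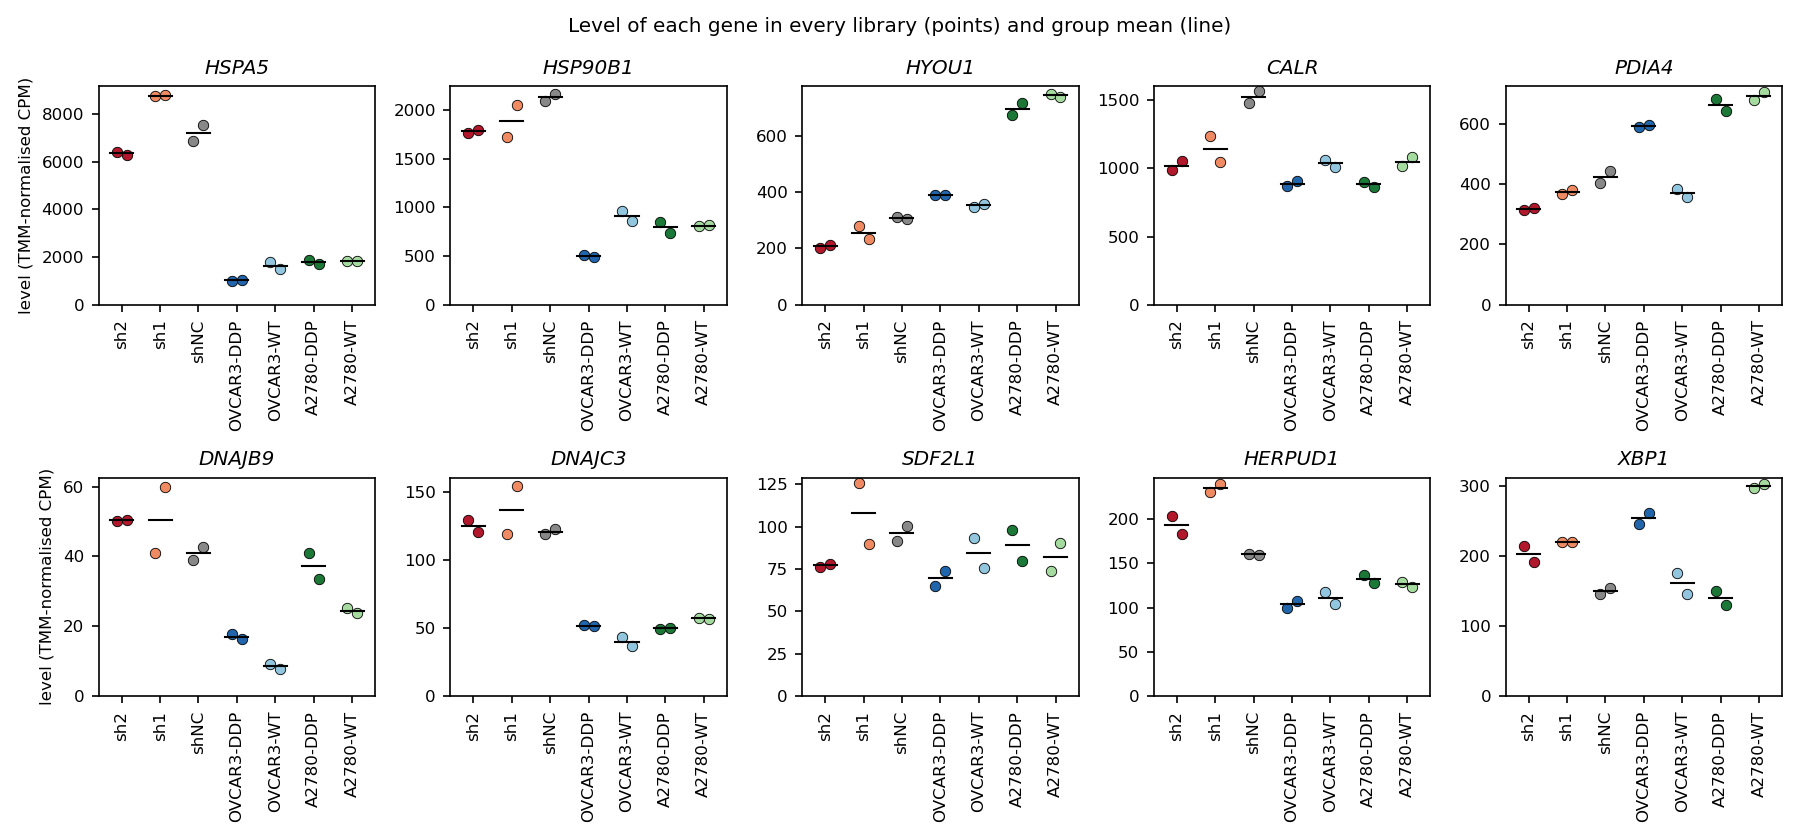
Level of each gene in TMM-normalised CPM (vertical axis, from 0) in the 2 libraries of each group (points), with the group mean as a line; OVCAR3-DDP stands for the libraries so labelled. HSPA5 lies at 6288 to 8783 CPM in the 6 hairpin libraries and at 1011 to 1896 CPM in the other 8.

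HSPA5 encodes BiP, the Hsp70 of the ER that binds unfolded chains and holds the sensors inactive (chromosome 9 of GRCh38 in GENCODE 29, 125234853 to 125241330, minus strand, protein coding). Its level was 6419.5 and 6288 CPM in sh2, 8752 and 8783 CPM in sh1 and 6858 and 7555 CPM in shNC. Without a hairpin it was 1011 and 1034 CPM in the OVCAR3-DDP-labelled libraries, 1781 and 1507 CPM in OVCAR3-WT, 1896 and 1687 CPM in A2780-DDP, and 1825 and 1840.5 CPM in A2780-WT. Neither parental line overlapped a hairpin group, and the highest group mean was 8.58 times the lowest. The order ran sh1, shNC, sh2, A2780-WT, A2780-DDP, OVCAR3-WT and the OVCAR3-DDP-labelled libraries. Within it A2780-WT overlapped A2780-DDP, and A2780-DDP overlapped OVCAR3-WT, while the other neighbours did not overlap.

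HSP90B1 encodes GRP94, the Hsp90 of the ER (chromosome 12, 103930107 to 103953645, plus strand, protein coding). It had 1767 and 1798 CPM in sh2, 1725 and 2046 CPM in sh1 and 2096 and 2163 CPM in shNC. The OVCAR3-DDP-labelled libraries had 507 and 495 CPM, OVCAR3-WT 966 and 859.9 CPM, A2780-DDP 851 and 737 CPM, and A2780-WT 805.5 and 821 CPM. As with HSPA5, the hairpin groups were the highest and the OVCAR3-DDP-labelled libraries the lowest, a ratio of 4.25 between group means. HSP90B1 shares 121 exon bases with UQCC6 on the opposite strand. UQCC6 read 277 to 282 CPM in sh2, 282 to 320 CPM in sh1 and 324 to 356 CPM in shNC. It read 105 to 112.5 CPM in the OVCAR3-DDP-labelled libraries and 168 to 186 CPM in OVCAR3-WT. In A2780-DDP it read 144 to 167 CPM and in A2780-WT 160 to 163 CPM. Its group means ran in the same order as those of HSP90B1, and its part in the counts of HSP90B1 was not tested. How the counting treated strand is not given in the sources used here, so reads of overlapping genes on opposite strands may not have been told apart.

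HYOU1 encodes GRP170, a large relative of Hsp70 that exchanges the nucleotide of BiP (chromosome 11, 119044189 to 119057202, minus strand, protein coding). Its 7 groups were all apart. It read 202 and 211 CPM in sh2, 281 and 232 CPM in sh1, 311 and 304 CPM in shNC, 391 and 390.3 CPM in the OVCAR3-DDP-labelled libraries and 348 and 358 CPM in OVCAR3-WT. In A2780 it was 672 and 715 CPM in A2780-DDP and 749 and 737 CPM in A2780-WT, so A2780 of either kind stood above every OVCAR3 library. An antisense gene without a symbol, ENSG00000255114, shares 666 of the 7694 exon bases of HYOU1. It read 4.71 to 6.28 CPM in the hairpin libraries and 57.1 to 152 CPM in the others, and its part in the counts of HYOU1 was not tested.

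CALR encodes calreticulin, the lectin chaperone and calcium store of the ER lumen (chromosome 19, 12938578 to 12944489, plus strand, protein coding). It had 991 and 1050.4 CPM in sh2, 1239 and 1049 CPM in sh1 and 1482 and 1569 CPM in shNC. It had 868 and 908 CPM in the OVCAR3-DDP-labelled libraries, 1062.5 and 1013 CPM in OVCAR3-WT, 901 and 865 CPM in A2780-DDP, and 1016 and 1083 CPM in A2780-WT. Only shNC stood clear of all the other groups, and the span of group means was 1.73 times. An antisense gene, ENSG00000267458, shares 270 exon bases with it and read 84.4 to 136.5 CPM. PDIA4 encodes the disulfide isomerase ERp72 (chromosome 7, 149003062 to 149028641, minus strand, protein coding). It was at 316 and 323 CPM in sh2, 367 and 379.9 CPM in sh1, 403 and 444 CPM in shNC and 591 and 597 CPM in the OVCAR3-DDP-labelled libraries. OVCAR3-WT had 386 and 358 CPM, A2780-DDP 683 and 642 CPM, and A2780-WT 681 and 707 CPM. The OVCAR3-DDP-labelled libraries thus lay between OVCAR3-WT and A2780-WT.

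DNAJB9 encodes the BiP helper ERdj4 (chromosome 7, 108569568 to 108574850, plus strand, protein coding). It had 50.2 and 50.5 CPM in sh2, 41.0 and 60.0 CPM in sh1, 38.9 and 42.8 CPM in shNC and 17.7 and 16.4 CPM in the OVCAR3-DDP-labelled libraries. OVCAR3-WT had 9.32 and 7.87 CPM, A2780-DDP 41.1 and 33.6 CPM, and A2780-WT 25.1 and 23.9 CPM. It was the gene with the largest ratio of group means after HSPA5, at 5.88. The ranges of shNC and A2780-DDP overlapped for DNAJB9. DNAJC3 encodes the BiP helper P58IPK (chromosome 13, 95677139 to 95794989, plus strand, protein coding). It read 129 and 121 CPM in sh2, 119 and 155 CPM in sh1 and 119 and 122.5 CPM in shNC. It read 52.4 and 51.5 CPM in the OVCAR3-DDP-labelled libraries, 43.2 and 37.2 CPM in OVCAR3-WT, 49.4 and 50.1 CPM in A2780-DDP, and 57.3 and 57.1 CPM in A2780-WT. The 3 hairpin groups of DNAJC3 overlapped one another and none of the rest.

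SDF2L1, which keeps BiP helper complexes active, varied least (chromosome 22, 21642261 to 21644298, plus strand, protein coding). It read 76.1 and 78.0 CPM in sh2, 126 and 89.9 CPM in sh1, 91.8 and 100.4 CPM in shNC and 64.9 and 74.0 CPM in the OVCAR3-DDP-labelled libraries. It read 93.5 and 75.3 CPM in OVCAR3-WT, 98.0 and 80.0 CPM in A2780-DDP, and 73.9 and 90.5 CPM in A2780-WT. Neighbouring groups overlapped in 5 of 6 steps of its order. HERPUD1 is a membrane scaffold of the complex that sends unfolded ER proteins to the proteasome (chromosome 16, 56932048 to 56944863, plus strand, protein coding). It was at 203 and 184 CPM in sh2, 230.2 and 240.0 CPM in sh1, 161 and 159 CPM in shNC and 100.05 and 107 CPM in the OVCAR3-DDP-labelled libraries. OVCAR3-WT had 118 and 104 CPM, A2780-DDP 137 and 128 CPM, and A2780-WT 129 and 124 CPM. Each hairpin group was apart from the next and from all groups without a hairpin.

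XBP1 is the transcription factor among the 10 (chromosome 22, 28794555 to 28800597, minus strand, protein coding). It had 214 and 192 CPM in sh2, 219.6 in each sh1 library, 146 and 155 CPM in shNC and 246 and 262 CPM in the OVCAR3-DDP-labelled libraries. OVCAR3-WT had 176 and 146 CPM, A2780-DDP 150.2 and 131 CPM, and A2780-WT 297 and 304 CPM. The lowest 3 groups of XBP1, OVCAR3-WT, shNC and A2780-DDP, overlapped with their neighbours, and the upper 4 were apart. On the scale of CPM per kilobase of exon, HSPA5 was the most abundant of the 10 in 6 of 7 groups, at 1626 in sh2, 2244 in sh1 and 1844 in shNC. CALR led in the OVCAR3-DDP-labelled libraries, with 327 CPM per kilobase against 262 for HSPA5. DNAJB9 was the least abundant on that scale in 6 of 7 groups, down to 3.03 CPM per kilobase in OVCAR3-WT.

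Together the 10 genes took 1.00% in each sh2 library, 1.23% and 1.29% of assigned counts in sh1, and 1.05% and 1.11% in shNC. They took 0.420% and 0.425% in the OVCAR3-DDP-labelled libraries, 0.499% and 0.456% in OVCAR3-WT, 0.564% and 0.534% in A2780-DDP, and 0.613% and 0.609% in A2780-WT. The widest 95% Clopper-Pearson interval reached 0.00479 percentage points to either side and covers counting error only. HSPA5 by itself made up 58.6% to 66.8% of the counts of the 10 in the hairpin libraries, against 26.3% to 35.7% in the others, with intervals of at most 0.227 percentage points to either side.

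**Figure D2:**
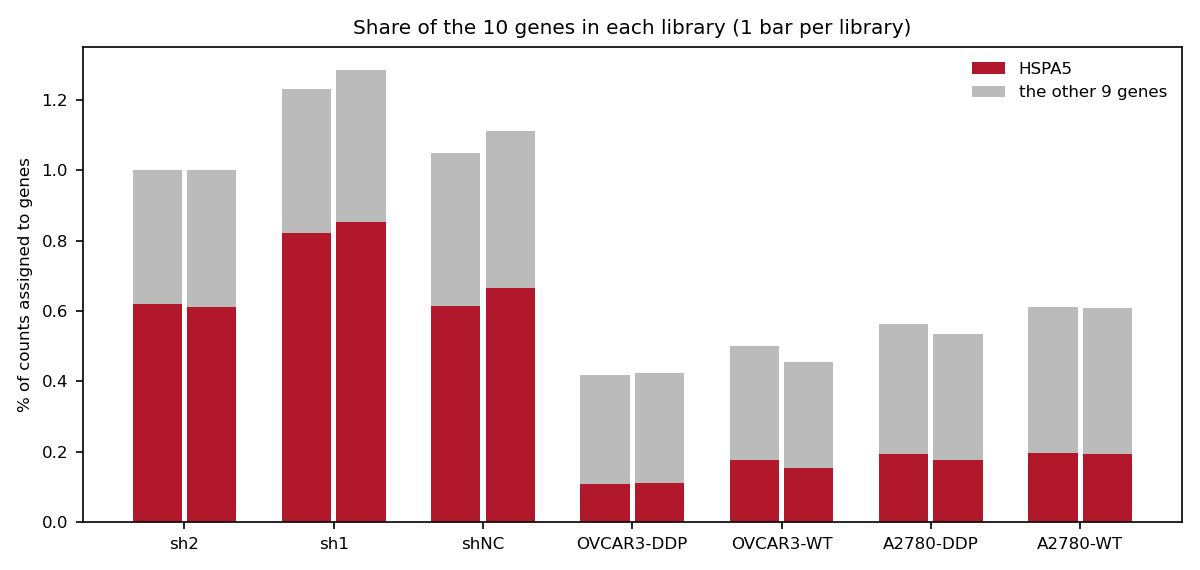
Share of the counts assigned to genes that fell on the 10 genes (vertical axis, percent), 1 bar per library, with HSPA5 in red and the other 9 genes in grey. The hairpin libraries reach 1.00% to 1.29%, the other libraries 0.420% to 0.613%.

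The first question was how resistance changed these genes in OVCAR3. In the hairpin control of the resistant cells, shNC, BiP and its helpers DNAJB9 and DNAJC3 stood far above OVCAR3-WT. HYOU1 and SDF2L1, which also act with BiP or its helpers, did not. HSPA5 was 4.38 times higher, a log2 fold change of 2.13 (SE 0.10; edgeR adjusted p = 8.6e-15), with libraries that did not overlap. DNAJB9 was higher by 2.25 on the log2 scale (SE 0.16), DNAJC3 by 1.59 (SE 0.12), HSP90B1 by 1.22 (SE 0.10), CALR by 0.56 (SE 0.10) and HERPUD1 by 0.54 (SE 0.10). The edgeR adjusted p of these 5 ran between 2.7e-11 and 0.000123. That made 6 of 10 genes higher and 0 lower, where 51.5% of 24193 genes were called in either direction, 25.1% higher and 26.5% lower. The libraries of shNC and OVCAR3-WT did not overlap for 8 of the 10, nor for 73.1% of all genes. The members' median was 0.55 on the log2 scale, and that of all genes tested 0.00. XBP1 (−0.10, 95% interval −0.32 to 0.13), SDF2L1 (0.19, −0.11 to 0.49), PDIA4 (0.19, −0.01 to 0.38) and HYOU1 (−0.20, −0.40 to 0.01) were not called.

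These 6 calls stood in each alternative fit and with each library left out. Without sh1 replicate 1 or sh1 replicate 2, HYOU1 was also called lower, at −0.20 in either case. These libraries are not compared here and take part through the shared spread, the gene filter and the scaling. PDIA4 was called higher as well in 5 of the other settings, with log2 values of 0.19 to 0.27. The hairpin libraries also had less mitochondrial messenger RNA and more reads with several alignments, as given above, and 12 of 13 mitochondrially encoded genes were lower in shNC than in OVCAR3-WT. Of 8 neural markers tested, 5 were higher and 0 lower in shNC, and of 9 carcinoma markers 4 were higher and 0 lower. Resistance, the hairpin and the set of libraries cannot be told apart in this comparison. PNPLA8 and THAP5, which share 99 and 183 exon bases with DNAJB9 on the other strand, read 60.7 to 62.9 and 13.9 to 14.3 CPM in shNC, against 18.5 to 19.3 and 17.7 to 20.3 CPM in OVCAR3-WT.

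The OVCAR3-DDP-labelled libraries gave another picture against the same OVCAR3-WT libraries. HSPA5 was lower there, with a log2 fold change of −0.76 (SE 0.10; edgeR adjusted p = 1.1e-05), and so was HSP90B1, at −0.94 (SE 0.09; edgeR adjusted p = 1.1e-06). SDF2L1 (−0.36, SE 0.14) and CALR (−0.30, SE 0.08) were also called lower, with edgeR adjusted p of 0.0323 and 0.00542. Higher were DNAJB9 (0.91, SE 0.13), PDIA4 (0.60, SE 0.08), XBP1 (0.58, SE 0.11) and DNAJC3 (0.29, SE 0.10), with edgeR adjusted p between 2.7e-05 and 0.0166. HERPUD1 (−0.17, 95% interval −0.37 to 0.04) and HYOU1 (0.07, −0.11 to 0.25) were not called. So 4 of 10 rose and 4 fell, where 68.5% of 23031 genes were called, 33.4% higher and 35.2% lower, and the share of the members called is near that background. The groups did not overlap for 9 of the 10, nor for 83.4% of all genes. The members' median was −0.05 on the log2 scale and that of all genes −0.03.

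Neural and carcinoma markers moved with this comparison, as given above, and their part in it was not tested. Of 7 neural markers tested, 5 were higher and 2 lower, and of 9 carcinoma markers 1 was higher and 8 lower. SDF2L1 kept its call in 4 of 17 alternatives and lost it in 13, with log2 values of −0.51 to −0.19 and edgeR adjusted p up to 0.235. Losing it took the count lower to 3 with DESeq2 size factors, the filter of 5 CPM, DESeq2's Wald test, limma-voom, the fit of all 14 libraries, and without OVCAR3-WT replicate 1, A2780-DDP replicate 1 or A2780-DDP replicate 2. With upper-quartile scaling, with a fit of the compared groups only, or without the OVCAR3-DDP-labelled replicate 1, A2780-WT replicate 1 or A2780-WT replicate 2, neither SDF2L1 nor CALR was called, which left 2 genes lower. HYOU1 was called higher (0.20) with upper-quartile scaling, and HERPUD1 lower (−0.26) without OVCAR3-WT replicate 2, which made 5 lower. DNAJC3 lost its call without OVCAR3-WT replicate 2 and without either OVCAR3-DDP-labelled library. Setting shNC directly against them, 2 groups labelled as the same resistant line, called 10 of 10 genes (7 higher, 3 lower), where 69.7% of 24193 genes were called, 32.9% higher and 36.8% lower. The groups did not overlap for any of the 10, nor for 86.0% of all genes. HSPA5 was 7.05 times higher in shNC (log2 2.82, SE 0.10; edgeR adjusted p = 8.5e-18), HSP90B1 4.25 times (log2 2.09, SE 0.11). DNAJB9, DNAJC3, CALR, HERPUD1 and SDF2L1 were higher by 0.47 to 1.26 on the log2 scale, while XBP1 (−0.76), PDIA4 (−0.49) and HYOU1 (−0.34) were lower. SDF2L1 lost this call without the OVCAR3-DDP-labelled replicate 1 (edgeR adjusted p = 0.0938) and without shNC replicate 2 (edgeR adjusted p = 0.0628), which left 6 higher.

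**Figure D3:**
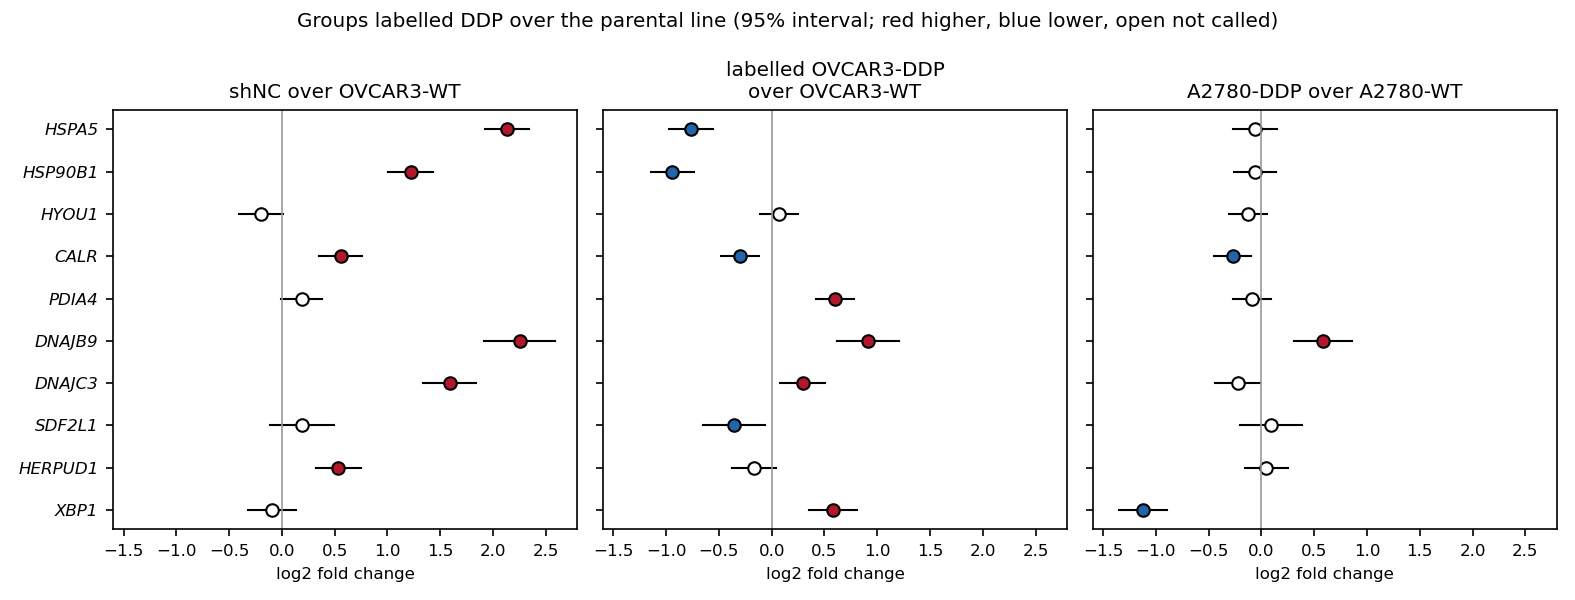
Log2 fold change of each gene (horizontal axis) with its 95% interval, for shNC over OVCAR3-WT, the OVCAR3-DDP-labelled libraries over OVCAR3-WT and A2780-DDP over A2780-WT; red points were called higher, blue points lower, open points not called. HSPA5 lies at 2.13, −0.76 and −0.06 in the 3 panels, and XBP1 at −0.10, 0.58 and −1.12.

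In A2780-DDP, XBP1 and CALR fell and DNAJB9 rose against A2780-WT. XBP1 fell to 150.2 and 131 CPM in A2780-DDP, against 297 and 304 CPM in A2780-WT, a log2 fold change of −1.12 (SE 0.11; edgeR adjusted p = 3.0e-06). DNAJB9 rose by 0.58 (SE 0.13; edgeR adjusted p = 0.00281), and CALR fell by 0.27 on the log2 scale (SE 0.08; edgeR adjusted p = 0.0199). The count of 1 gene higher and 2 lower of 10 stands beside 35.3% of 23031 genes called, 18.0% higher and 17.3% lower, so the share of the members called is near that background. The groups did not overlap for 5 of the 10, nor for 65.3% of all genes. The other 7 genes lay between −0.22 (DNAJC3) and 0.09 (SDF2L1), and the intervals of HSPA5 (−0.27 to 0.15) and HSP90B1 (−0.26 to 0.14) leave room for changes of that size only. XBP1 and DNAJB9 were called in every alternative run. CALR was no longer called in the fit of all 14 libraries (edgeR adjusted p = 0.0524) or without A2780-WT replicate 1, A2780-WT replicate 2, A2780-DDP replicate 1 or A2780-DDP replicate 2 (edgeR adjusted p between 0.0578 and 0.292), which left 1 gene lower; without OVCAR3-WT replicate 1, DNAJC3 was also called lower, which made 3. The neural markers summed to 698 to 796 CPM in A2780-DDP and 152 to 159 CPM in A2780-WT, and the carcinoma markers to 264 to 297 and 183 to 195 CPM, and their part was not tested.

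The change in one pair was also tested against the change in the other, first with the OVCAR3-DDP-labelled libraries over OVCAR3-WT, minus A2780-DDP over A2780-WT. Of the 10 genes 3 were called higher and 2 lower, where 53.8% of 23031 genes were called, 26.9% each way, so the members' share is near that background. The difference was 1.70 on the log2 scale for XBP1 (SE 0.15; edgeR adjusted p = 5.8e-07), 0.69 for PDIA4 (SE 0.12), 0.52 for DNAJC3 (SE 0.14), −0.70 for HSPA5 (SE 0.14) and −0.88 for HSP90B1 (SE 0.13). DNAJB9, higher in both pairs, differed by 0.33 between them (95% interval −0.07 to 0.73) and was not called, nor was CALR, lower in both (−0.03, −0.28 to 0.22). Leaving out OVCAR3-WT replicate 1 or A2780-DDP replicate 1 moved DNAJB9 to 0.48 or 0.52. SDF2L1 (−0.45, −0.86 to −0.03) was not called, but was called lower with no low-count filter (−0.41). It moved to −0.60 without OVCAR3-WT replicate 2 and to −0.57 without A2780-DDP replicate 2. HYOU1 (0.19, −0.06 to 0.45) was called higher only with upper-quartile scaling (0.30) and the filter of 5 CPM (0.29). With shNC in place of the OVCAR3-DDP-labelled libraries, a fit of all 14 libraries chosen after the data were seen, HSPA5 and HSP90B1 turned to the other direction, at 2.16 (SE 0.14) and 1.26 (SE 0.14). That fit called 7 of 10 higher and 0 lower, where 40.9% of 24193 genes were called, 18.7% higher and 22.2% lower. DNAJC3 (1.79, SE 0.17), DNAJB9 (1.64, SE 0.22), XBP1 (0.9987, SE 0.15), CALR (0.80, SE 0.14) and HERPUD1 (0.47, SE 0.15) were the other 5, and PDIA4 was not called (0.25, 95% interval −0.02 to 0.53). In this form too, resistance, the hairpin and the set of libraries cannot be told apart.

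Parental OVCAR3-WT, set against A2780-WT, had less DNAJB9 (log2 −1.54, SE 0.13), HYOU1 (−1.10, SE 0.08), XBP1 (−0.93, SE 0.11), PDIA4 (−0.93, SE 0.08) and DNAJC3 (−0.54, SE 0.10). The edgeR adjusted p of these 5 was at most 0.000307, 0 genes were higher, and 66.0% of all genes were called, 32.3% higher and 33.7% lower. The parental groups did not overlap for 8 of the 10, nor for 81.2% of all genes. HSP90B1 became 1 gene called higher without OVCAR3-WT replicate 2. HERPUD1 was called lower as well with limma-voom and without OVCAR3-WT replicate 1, A2780-DDP replicate 1 or A2780-DDP replicate 2, and HSPA5 without OVCAR3-WT replicate 1, so that the count lower ran 5 to 7.

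The second question was what the ADAR1 hairpins did. ADAR fell with both hairpins, by 1.99 on the log2 scale with sh2 (SE 0.11; edgeR adjusted p = 2.1e-09) and by 0.71 with sh1 (SE 0.11; edgeR adjusted p = 0.00123), and it was lower in sh2 than in sh1 (log2 −1.27; edgeR adjusted p = 5.9e-06). The ER genes split. XBP1 and HERPUD1 rose and CALR and HYOU1 fell in the mean of both hairpins over shNC, while HSPA5, HSP90B1, DNAJB9, DNAJC3, SDF2L1 and PDIA4 were not called. XBP1 rose by 0.51 on the log2 scale (SE 0.10; edgeR adjusted p = 0.00306) and HERPUD1 by 0.44 (SE 0.10; edgeR adjusted p = 0.00786). CALR fell by 0.47 on the log2 scale (SE 0.09; edgeR adjusted p = 0.00194) and HYOU1 by 0.40 (SE 0.10; edgeR adjusted p = 0.0125). For each of the 4 genes, all 4 knockdown libraries lay on one side of both shNC libraries. The count of 2 higher and 2 lower of 10 stands beside 5.94% higher and 5.98% lower of 19044 genes, and the members' median was 0.01. PDIA4 stood at −0.27 (SE 0.09; edgeR adjusted p = 0.0557) and was called lower, making 3, in 7 of 14 alternatives: with DESeq2 size factors, upper-quartile scaling, the filter of 5 CPM, DESeq2's Wald test and all 14 libraries, and without either sh1 library. The knockdown libraries lay clear of shNC for 6 of the 10 and for 31.8% of all genes.

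With sh2 alone, XBP1 rose by 0.45 (SE 0.11; edgeR adjusted p = 0.0110), and CALR (−0.56), HYOU1 (−0.55) and PDIA4 (−0.39, SE 0.11; edgeR adjusted p = 0.0192) fell. HERPUD1 was at 0.29 (95% interval 0.06 to 0.52) and not called. With sh1, HERPUD1 rose by 0.58 (SE 0.11), XBP1 by 0.57 (SE 0.11) and HSPA5 by 0.31 (SE 0.08; edgeR adjusted p = 0.0443), and CALR fell by 0.39 on the log2 scale (SE 0.10; edgeR adjusted p = 0.0343). The 1 higher and 3 lower with sh2 stand beside 14.3% of 19044 genes called, 7.23% higher and 7.04% lower, and the 3 higher and 1 lower with sh1 beside 3.81%, 1.96% higher and 1.85% lower. Groups did not overlap for 9 of the 10 with sh2 (64.3% of all genes) and for 7 with sh1 (47.3%). The comparisons of sh2 and sh1 share the shNC libraries, so they are not independent of each other.

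Set directly against sh1, sh2 had less HSPA5, with a log2 fold change of −0.47 (SE 0.08; edgeR adjusted p = 0.00520), and this was 1 of 10 genes called where 1.92% of 19044 genes were, 0.667% higher and 1.25% lower. The 2 groups did not overlap for 6 of the 10, nor for 43.6% of all genes. HSPA5 was at 6419.5 and 6288 CPM in sh2 and at 8752 and 8783 CPM in sh1, on either side of the shNC libraries with 6858 and 7555 CPM. SDF2L1 (−0.49, 95% interval −0.78 to −0.21), HYOU1 (−0.31, −0.55 to −0.08) and HERPUD1 (−0.29, −0.52 to −0.06) were not called. XBP1 differed by −0.12 (−0.35 to 0.11), and CALR by −0.17 (−0.38 to 0.04).

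Several of the hairpin calls changed when 1 library was left out. Where they changed, the number of all genes called moved in the same direction, so the counts below are not particular to the ER genes. Without sh1 replicate 1, the genes newly called with sh2 kept nearly the same log2 values. HSP90B1 was at −0.24 with and without that library, and HERPUD1 at 0.28, against 0.29 with it. With sh1, DNAJB9 did move, to 0.58, against 0.34. Without shNC replicate 1 or shNC replicate 2, 0 genes were called higher with either hairpin or in their mean, 1 was called lower in the mean and 0 lower with sh1. Without sh2 replicate 1, no gene was called with sh2 and 1 each way in the mean. Without sh1 replicate 1, the mean had 4 genes higher, and without sh1 replicate 2 it had 4 lower. Leaving out either of these sh1 libraries gave 3 higher and 6 lower for sh2, and without sh1 replicate 1 there were 5 higher and 2 lower for sh1. Without sh1 replicate 2 sh1 had 2 lower as well, and without sh2 replicate 1 or sh2 replicate 2 it had 0 lower. Set against sh1, sh2 had 3 lower without sh1 replicate 1 and 5 lower without sh1 replicate 2. HSPA5 lost its call with sh1 (edgeR adjusted p up to 0.305 over the alternatives) in the fit of the compared groups only, which also lost CALR and left 0 genes lower, in the fit of all 14 libraries, with genes of at least 5 CPM, and without either sh2 library. The difference of HSPA5 between sh2 and sh1 was lost without sh2 replicate 1 or sh2 replicate 2 and ran between −0.48 and −0.45 over the alternatives. Mitochondrially encoded genes moved with the hairpins too, with 6 of 13 lower and 0 higher in the mean. Of the 8 ovarian carcinoma markers tested, 5 were lower and 0 higher in the mean, and 4 were lower with sh1. FOLR1 (−0.72, SE 0.08) and MUC16 (−0.92, SE 0.18) were among those lower in the mean. The 11 markers summed to 4149 to 4168 CPM in sh2 and 3850.4 to 4296 CPM in sh1, against 5181 to 5606 CPM in shNC. The part of these genes in the hairpin results was not tested.

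**Figure D4:**
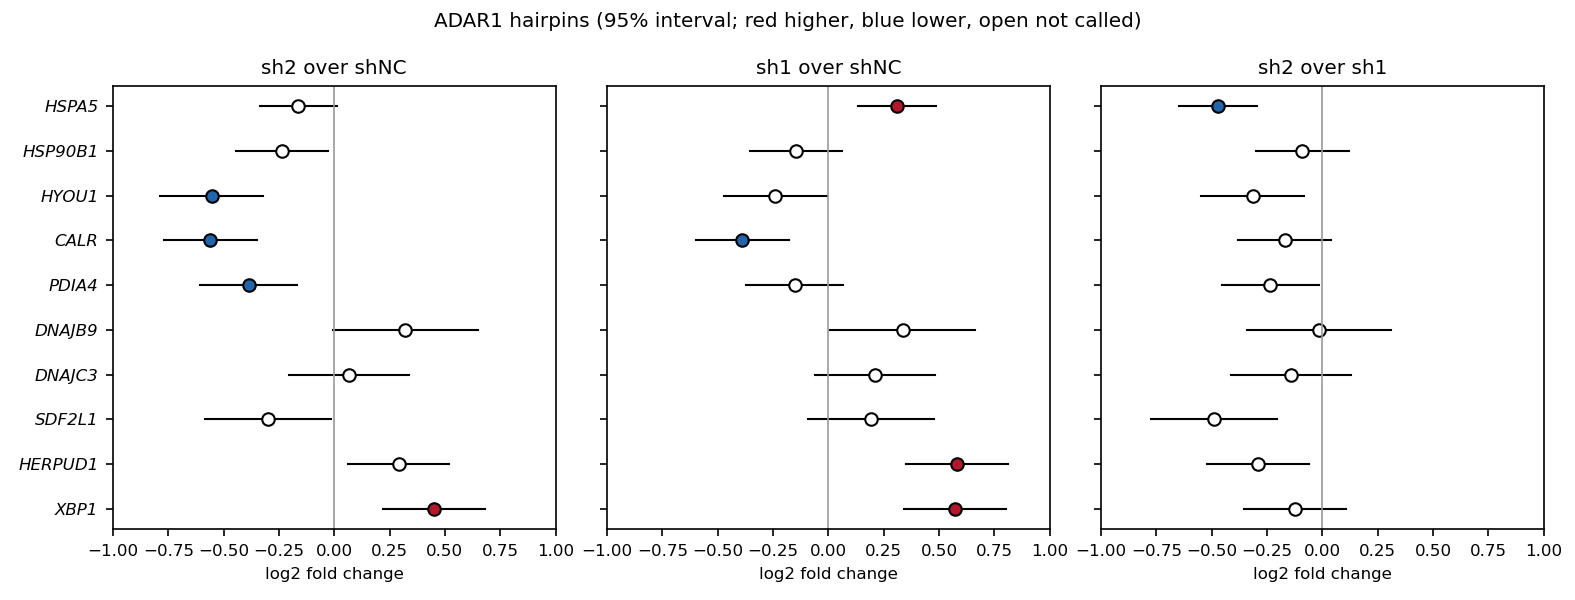
Log2 fold change of each gene (horizontal axis) with its 95% interval, for sh2 over shNC, sh1 over shNC and sh2 over sh1; red points were called higher, blue points lower, open points not called. XBP1 lies at 0.45 and 0.57 and CALR at −0.56 and −0.39 with the 2 hairpins, and HSPA5 is the one gene called between them, at −0.47.

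Of the sensors and transducers of the response, 1 of 11 rose and 3 fell with the hairpins, where 5.94% of all genes rose and 5.98% fell. In the mean over shNC, ERN1 (0.11), EIF2AK3 (0.03), ATF6 (0.20) and ATF4 (0.22) were not called, while DDIT3, the CHOP transcription factor of prolonged stress, rose by 0.49 on the log2 scale (SE 0.11; edgeR adjusted p = 0.00745), and MBTPS1, a protease that frees ATF6, fell by 0.32 on the log2 scale (SE 0.10; edgeR adjusted p = 0.0405). ATF6B, the sister gene of ATF6, fell by 0.46 on the log2 scale (SE 0.12; edgeR adjusted p = 0.0162) and CREB3L2, another transcription factor held in the ER membrane, by 0.32 (SE 0.10; edgeR adjusted p = 0.0374). With sh2 alone ATF6B was at −0.62 (SE 0.14; edgeR adjusted p = 0.00637). DDIT3 read 73.4 and 66.4 CPM in sh2, 70.3 and 71.2 CPM in sh1, and 49.8 and 51.7 CPM in shNC. EIF2AK3 was higher in shNC than in OVCAR3-WT by 1.41 (SE 0.13; edgeR adjusted p = 2.2e-09), and ATF4 was lower (log2 −0.58, SE 0.10). ATF6 and ERN1 were not called there, at 0.08 and 0.29. In A2780-DDP over A2780-WT, ERN1 (−0.57, SE 0.12), ATF4 (−0.49, SE 0.10) and DDIT3 (−0.36, SE 0.10) fell, as XBP1 did. In the OVCAR3-DDP-labelled libraries, ATF6 (−0.95) and DDIT3 (−1.28) were lower than in OVCAR3-WT and ATF4 (0.49), EIF2AK3 (0.35) and ERN1 (0.29) higher. Of the 11 sensors and transducers, 2 rose and 3 fell in shNC over OVCAR3-WT, 3 rose and 5 fell in the OVCAR3-DDP-labelled libraries, and 0 rose and 6 fell in A2780-DDP. In the same order, 25.1%, 33.4% and 18.0% of all genes rose, and 26.5%, 35.2% and 17.3% fell. The counts for shNC and for the OVCAR3-DDP-labelled libraries are near these shares.

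The counts of the lists that follow stand beside shares of all genes. In shNC over OVCAR3-WT 25.1% were higher and 26.5% lower, and in the OVCAR3-DDP-labelled libraries 33.4% and 35.2%. In A2780-DDP the shares were 18.0% and 17.3%, and in the hairpin mean 5.94% and 5.98%. Other ER folding factors, a list of 27 genes, gave 12 higher and 0 lower in shNC over OVCAR3-WT, with a median of 0.16 against 0.00 for all genes. ERO1A, an oxidase that recharges disulfide isomerases, led them (1.85, SE 0.12), and QSOX1, a sulfhydryl oxidase, followed (1.25, SE 0.11). In the OVCAR3-DDP-labelled libraries 4 of the 27 were higher and 19 lower (median −0.68, all genes −0.03), among them QSOX1 (−1.47, SE 0.09) and SIL1, an exchange factor of BiP (−1.43, SE 0.12). ERO1B, a sister enzyme of ERO1A, was higher, at 36.0 and 34.7 CPM in the OVCAR3-DDP-labelled libraries and 0.390 and 0.459 CPM in OVCAR3-WT (log2 6.28, SE 0.16). A2780-DDP had 4 higher and 7 lower, with CANX, the membrane-bound partner of calreticulin, at 184 and 197 CPM in A2780-DDP and 506 and 504 CPM in A2780-WT (−1.43, SE 0.09; edgeR adjusted p = 6.4e-08). The hairpin mean had 1 higher, DNAJC1 (0.46, SE 0.12), and 7 lower, with a median of −0.15 (all genes 0.00). QSOX1 (−0.51, SE 0.09) and TXNDC5, a disulfide isomerase (−0.44, SE 0.14), had the largest falls of those at 10 CPM or more.

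ER-associated degradation, 20 genes, had 9 higher and 6 lower in shNC over OVCAR3-WT (median 0.20), 3 and 12 in the OVCAR3-DDP-labelled libraries (−0.34), 4 and 8 in A2780-DDP (0.05), and 0 and 3 in the hairpin mean (−0.01). DERL2 and DERL3, channel proteins of that route, went apart in the OVCAR3-DDP-labelled libraries, at −1.84 (SE 0.10) and 1.48 (SE 0.19). Translocation and ER export, 22 genes, had 9 higher and 4 lower in shNC over OVCAR3-WT (median 0.13), 5 and 11 in the OVCAR3-DDP-labelled libraries (−0.23), 6 and 1 in A2780-DDP (0.11), and 1 and 1 in the hairpin mean (0.03). The last of these counts is near the share of all genes. SEC61A1, the pore subunit of the translocon, fell by 0.39 on the log2 scale in the hairpin mean (SE 0.09; edgeR adjusted p = 0.00902), and SEC62, its partner, rose by 0.48 (SE 0.13; edgeR adjusted p = 0.0235).

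Of the PERK-ATF4 list of 12 genes, 7 rose and 0 fell in the hairpin mean, with a median of 0.68, where 5.94% of all genes rose and 5.98% fell. ASNS, asparagine synthetase, had 13.6 and 14.03 CPM in sh2, 17.2 and 13.98 CPM in sh1, and 5.57 and 5.49 CPM in shNC (1.43, SE 0.16; edgeR adjusted p = 4.5e-05). SESN2, a stress-induced regulator of growth signalling, rose by 1.06 (SE 0.16). In A2780-DDP 1 gene of the list rose and 11 fell (median −0.86), among them DDIT4, an inhibitor of growth signalling (−3.14, SE 0.10), and CHAC1, a glutathione-degrading enzyme (−1.73, SE 0.10). SLC7A11, the cystine carrier, was the one that rose (0.93, SE 0.12). The list had 4 higher and 7 lower in shNC over OVCAR3-WT (median −1.20), with CHAC1 at 1.70 and 2.67 CPM in shNC, against 71.3 and 64.1 CPM in OVCAR3-WT, and 4 higher and 7 lower in the OVCAR3-DDP-labelled libraries (−1.002). PPP1R15A, the phosphatase subunit that ends the translation block, was higher in both, by 2.49 and 1.05.

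Chaperones of other compartments give the comparison outside the ER. HSPA8, the constitutive cytosolic Hsp70, had 1690.3 and 1975 CPM in shNC, 1021 and 1017 CPM in the OVCAR3-DDP-labelled libraries and 422 and 398 CPM in OVCAR3-WT. Its log2 difference was 2.16 (SE 0.10) for shNC over OVCAR3-WT, close in size to HSPA5, but it was 1.24 (SE 0.09) for the OVCAR3-DDP-labelled libraries and 1.13 (SE 0.09) for A2780-DDP, where HSPA5 was lower or not called. HSPA9, the mitochondrial Hsp70, was lower in shNC (−0.74) and in the OVCAR3-DDP-labelled libraries (−2.10) than in OVCAR3-WT and higher in A2780-DDP (0.84). The cytosolic HSP90AA1 was higher in shNC than in OVCAR3-WT by 0.44 and rose in the hairpin mean by 0.58 (SE 0.10; edgeR adjusted p = 0.00132), while HSP90AB1 did not pass there (−0.01) and HSP90B1 was at −0.19. TRAP1, the mitochondrial Hsp90, was lower in shNC (−0.26) and not called in A2780-DDP (0.04) or in the hairpin mean (−0.25).

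Of the 14 cytosolic heat shock chaperones, 7 were higher and 3 lower in shNC over OVCAR3-WT (median 0.23), 3 and 7 in the OVCAR3-DDP-labelled libraries (−0.37), and 9 and 2 in A2780-DDP (0.52). The hairpin mean had 6 of 12 tested higher and 0 lower (0.29), led by HSPA4, an exchange factor of Hsp70 (0.63, SE 0.11). HSPA1B, the inducible Hsp70, read 57.6 and 50.9 CPM in A2780-DDP and 6.78 and 7.56 CPM in A2780-WT (2.89, SE 0.12), although it has a near-identical copy, HSPA1A, with which it may share reads. The 8 mitochondrial chaperones and proteases had 1 higher and 3 lower in shNC over OVCAR3-WT, 1 and 5 in the OVCAR3-DDP-labelled libraries, 2 and 1 in A2780-DDP, and 2 and 0 in the hairpin mean.

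**Figure D5:**
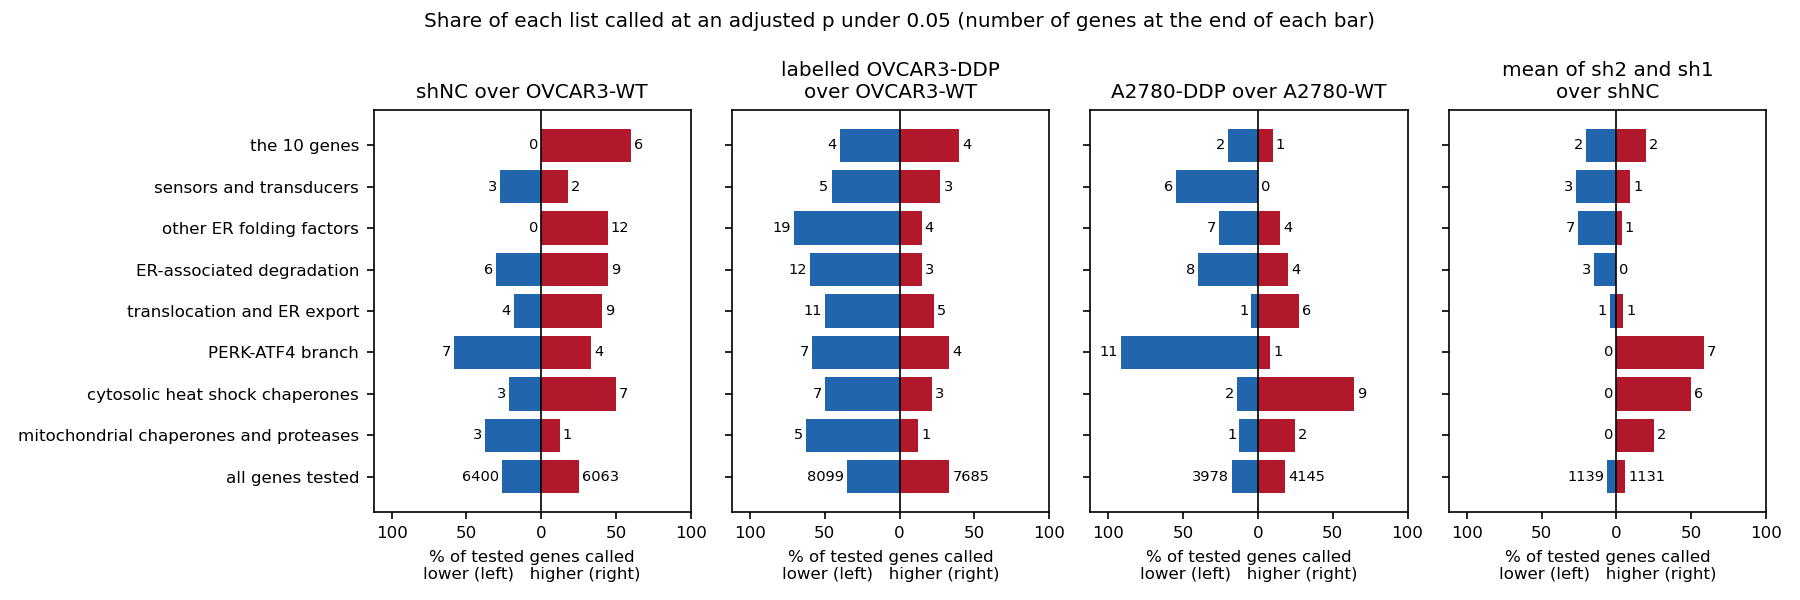
Percent of the tested genes of each list called lower (blue, left) and higher (red, right) at an edgeR adjusted p under 0.05, with the number of genes at the end of each bar, in 4 comparisons. The 10 genes have 6 higher and 0 lower in shNC over OVCAR3-WT, and the PERK-ATF4 list has 11 of 12 lower in A2780-DDP and 7 of 12 higher in the hairpin mean.

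The genes nearest to each member in pattern were sought among 13271 genes that reached 10 CPM in at least 1 group, by the root mean square difference of centred log2(CPM + 1) over the 7 group means. This is a description over 7 points that share libraries, and it carries no test. HSP90B1 lay nearest to SBF2 (0.09), GNAI2 (0.10), WNT9A (0.14), GNAI3 (0.14) and GAPDH (0.14). GAPDH, a glycolytic enzyme often used as a loading control, read 6639 to 6933 CPM in sh2, 7095 to 7576 CPM in sh1, 8350 to 9200 CPM in shNC, 1778 to 1898 CPM in the OVCAR3-DDP-labelled libraries and 2613 to 2876 CPM in OVCAR3-WT. HSPA5 lay nearest to GAPDHP1 (0.20), DDX60 (0.25), BZW1 (0.26), OASL (0.26) and SRFBP1 (0.26). PDIA4 had the closest neighbour of the 10, TBC1D17 at 0.04, followed by MIR762 (0.06), ABCB9 (0.08), H6PD (0.08) and DDOST (0.08).

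SDF2L1 was nearest to ENSG00000238221 (0.07), NCOA6 (0.07), SSR1 (0.08) and ZNF609 (0.09), and CALR to TMED2-DT (0.09), NUMA1 (0.09), BTN3A2 (0.11), HECTD3 (0.11) and ILVBL (0.12). DNAJC3 was nearest to TMF1 (0.17), NGLY1 (0.17), SCAPER (0.17), CLK1 (0.19) and ANKZF1 (0.19), and DNAJB9 to MSMO1 (0.23), BAG3 (0.24), B3GNT5 (0.24), ZEB1 (0.25) and SMAP1 (0.25). HERPUD1 was nearest to ZDHHC11 (0.14), STAMBP (0.15), ATP2C1 (0.16), UBE2D1 (0.16) and NUMB (0.16). HYOU1 was nearest to ENSG00000259605 (0.12), SIX5 (0.13), LMF1 (0.14), FDXR (0.16) and SCAND1 (0.16), and XBP1 to POU6F1 (0.14), GGPS1 (0.16), RP2 (0.18), C1orf52 (0.19) and C16orf87 (0.19). No member was among the 5 genes nearest to another. The closest pair within the 10 was SDF2L1 with CALR, at 0.20. The measure is not scaled to the span of a gene, and these had the smallest spans of group means (1.55 and 1.73 times). XBP1 was the farthest from its nearest member, PDIA4, at 0.48 and rank 2492 among all genes. DNAJB9 was at 0.47 from DNAJC3 and HSPA5 at 0.47 from HSP90B1, but at ranks 110 and 111. Other members nearer than the median gene numbered 8 for DNAJB9, 7 for HSPA5, HSP90B1 and DNAJC3, 6 for HERPUD1 and CALR, and 4 for the rest.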

How the data were processed

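Counts per gene were deposited by the authors as 1 table of raw HTSeq counts per library, with 62757 genes and 5 summary lines, which were left out of library sizes and tests. FastQC 0.11.9, STAR 2.7.8a, SAMtools, HTSeq 2.0.3 and GRCh38.p13 were used, per the submitters' processing notes. The sources used here give neither annotation release nor strand setting. Reads on no gene were 48.7% to 50.0% of the reads counted in a library.

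From the counts, CPM were computed with TMM factors over all 14 libraries. The test was edgeR's quasi-likelihood F-test with TMM, filterByExpr at a minimum count of 10, a mean per group and Benjamini-Hochberg adjustment at 0.05. The 8 libraries without a hairpin formed 1 fit (23031 genes, 4 residual degrees of freedom), the 6 hairpin libraries another (19044 genes, 3), and all 14 the last (24193 genes, 7), used where shNC is set against a group without a hairpin. The SE is the log2 fold change over the root of F, and intervals are at 95%. The line difference is an interaction contrast.

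The members and gene lists were chosen with earlier results of these data known. Named were the members, ADAR, the sensors, paralogs of other compartments, from each list at most 2 genes per direction and comparison with the largest called fold change at 10 CPM or more in the higher group, and the 5 genes nearest in pattern to each member, of which 1, near SDF2L1, is not reported here. The markers KRT7 and MUC16, GAPDH levels and the overlapping genes were chosen after their values were seen. Of 6 plasma cell markers 1 reached 1 CPM in each group, and of 7 fibroblast markers 3 to 6. Gene coordinates are those of GENCODE 29, promoter sequences those of RefSeq. Pseudogenes of the members reached at most 1.67 CPM. Replicates differed beyond counting noise (chi-square per gene 3.88 to 31.5). They differed most in OVCAR3-WT (31.5), sh1 (21.1) and A2780-DDP (18.0), against 3.88 to 5.01 in the other groups, while each fit shares its estimate of spread over groups. The tests were tried on simulated data. Alternatives were scaling by DESeq2 size factors or by upper quartiles, a filter of none or of 5 CPM on average, limma-voom, the Wald test of DESeq2, fits of only the compared groups or of all libraries, a block for the replicate number, omission of each library in turn, and, chosen after seeing the data, shNC as the resistant side of OVCAR3 in the line difference. Software was R 4.3.3, edgeR 4.0.16, limma 3.58.1, DESeq2 1.42.0, Python 3.11.15, numpy 2.4.6, pandas 2.3.3, scipy 1.17.1 and matplotlib 3.10.9.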

Additional observations from a re-analysis of the deposited data

Results flagged for a closer look

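The change between the resistant and the parental side differed between OVCAR3, with the OVCAR3-DDP-labelled libraries, and A2780 for 5 genes by the test of the difference itself. The difference of log2 fold changes was −0.70 for HSPA5 (SE 0.14; edgeR adjusted p = 0.000644), −0.88 for HSP90B1 (SE 0.13; edgeR adjusted p = 8.2e-05), 0.52 for DNAJC3 (SE 0.14; edgeR adjusted p = 0.00624), 1.70 for XBP1 (SE 0.15; edgeR adjusted p = 5.8e-07) and 0.69 for PDIA4 (SE 0.12; edgeR adjusted p = 0.000246). These 5 of 10 stand beside 53.8% of all genes called. In each case the 2 pairs share no library. XBP1 was the gene that rose in one pair and fell in the other. With shNC in place of the OVCAR3-DDP-labelled libraries, whose markers go against their label, the difference was 2.16 for HSPA5, 1.26 for HSP90B1, 1.79 for DNAJC3, 0.9987 for XBP1 and 0.25 for PDIA4, the last of these not called.

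Between the hairpins, HSPA5 was lower in sh2 than in sh1, with a log2 fold change of −0.47 (SE 0.08; edgeR adjusted p = 0.00520), in both libraries of sh2. It was 1 of 10 genes called, where 1.92% of 19044 genes were. As given above, the call needed both sh2 libraries. The log2 fold change was −0.48 without sh2 replicate 1 and −0.46 without sh2 replicate 2.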

How the results depend on the processing

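Of 1710 values of single genes under the alternatives, 1580 kept their side of the threshold and, where called, their direction, 65 lost the call and 61 gained it. The other 4 changed sign with a call, all with shNC in place of the OVCAR3-DDP-labelled libraries in the difference between the lines: HSPA5 (2.16), HSP90B1 (1.26), HERPUD1 (0.47, against −0.21) and CALR (0.80). That alternative, added after seeing the data, gave 7 higher, against 3, and 0 lower, against 2. Counts of genes lower fell to 2, against 4, for the OVCAR3-DDP-labelled libraries over OVCAR3-WT with upper-quartile scaling and with the compared groups only, and to 1, against 2, for A2780-DDP over A2780-WT in the fit of all 14 libraries. With the compared groups only, sh1 had 0 lower, against 1, and sh2 had 3 higher, against 1, and 5 lower, against 3. For sh2 over sh1, no low-count filter and DESeq2's Wald test each gave 2 lower, against 1. The causes were not tested.

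With 1 library left out, the counts ran 2 to 5 lower for the OVCAR3-DDP-labelled libraries over OVCAR3-WT, 1 to 3 lower for A2780-DDP over A2780-WT, 0 to 1 higher and 5 to 7 lower for OVCAR3-WT over A2780-WT, and 6 to 7 higher for shNC over the OVCAR3-DDP-labelled libraries. In the hairpin mean they ran 0 to 4 higher and 1 to 4 lower, for sh1 0 to 5 higher and 0 to 2 lower, for sh2 0 to 3 higher and 0 to 6 lower, for sh2 over sh1 0 to 5 lower, and for shNC over OVCAR3-WT 0 to 1 lower. A lone remaining library was assumed to vary like the other groups. In the hairpin comparisons the number of all genes called moved with these omissions too.

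Libraries of the same replicate number were not paired in the main fits. The replicate differences of the groups compared correlated at −0.16 (OVCAR3), −0.25 (A2780), 0.05 (shNC with sh1), −0.02 (shNC with sh2), −0.31 (sh1 with sh2), −0.17 (both parental lines), −0.14 (OVCAR3-WT with shNC) and 0.06 (shNC with the OVCAR3-DDP-labelled libraries). In the difference between the lines, OVCAR3-WT with A2780-DDP reached 0.51, so replicates of the same number tended to move together there, and not every pair was over 0.1. The source of this was not tested. With the replicate block the one call of these genes that changed was HSPA5 with sh1 (0.31, edgeR adjusted p = 0.0588), which left 2 higher, against 3. Upper-quartile scaling moved the median of all genes to 0.07, against −0.03, for the OVCAR3-DDP-labelled libraries over OVCAR3-WT, and to 0.10, against −0.01, for the line difference. The fit of the compared groups is the same as the one used for the line difference and the hairpin mean, and that of all libraries for both comparisons of shNC with other groups.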
